A study of Mus musculus with 4 samples.

Results

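The genes examined here control passage through the G1 phase of the cell cycle: the D-type cyclins Ccnd1, Ccnd2 and Ccnd3, cyclin E1 (Ccne1), the kinases Cdk4 and Cdk6, the kinase inhibitors Cdkn1b and Cdkn2a, the retinoblastoma gene Rb1 and the transcription factor E2f1. They were chosen by gene identity. A probe set, the group of short probes that reads a transcript, was taken where the platform annotation assigned it to 1 of these 10 genes and to no other. This gave 29 of the 45101 probe sets and 10 of the 18193 genes with a single-gene probe set. The study addressed the role of Notch signaling in urothelial cancer and compared 2 normal ureter samples with 2 ureter tumor samples of C57Bl/6 mice aged 6 to 8 weeks, each on 1 Affymetrix whole-genome mouse expression array. The labels of all 4 samples carry the same treatment text: R26rtTA;teto-Cre;Ncstnf/f mice received doxycycline for 1 week from 3 weeks of age. Doxycycline makes the reverse transactivator (rtTA) switch on Cre, which deletes the floxed Ncstn alleles. Nicastrin, their product, is part of the protease that releases the active domain of Notch receptors. Since rtTA sits at the Rosa26 locus, which is active in most tissues, recombination is not restricted to the urothelium by the construct. The labels do not say which genotype each sample had, or whether the normal mice carried the alleles or received the drug.

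In the textbook pathway, growth signals induce D-type cyclins, which pair with Cdk4 or Cdk6 and begin the phosphorylation of the retinoblastoma protein. Phosphorylated Rb releases E2F factors, which switch on cyclin E and the genes of DNA synthesis, and cyclin E with Cdk2 then completes the step. Inhibitors of the Ink4 family, such as the p16 product of Cdkn2a, block Cdk4 and Cdk6, while p27 (Cdkn1b) blocks cyclin E with Cdk2. In human urothelial carcinoma, loss of CDKN2A or RB1 and gain of CCND1 or E2F3 are well known lesions.

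The values were MAS5 signals, a linear measure of brightness per probe set, and with so few arrays each comparison is imprecise. The normal arrays resembled each other (Pearson's r across 13115 genes 0.975) more than the tumor arrays did (0.778), and genes are not independent replicates. Tumor replicate 2 was closer to normal replicates 1 and 2 (0.819 and 0.823) than to tumor replicate 1. Tumor replicate 1 had 0.763 and 0.76 with the normal arrays. The 3' to 5' signal ratio of Gapdh, which grows as RNA degrades, was 0.92 and 0.923 in normal ureter against 1.51 and 1.44 in the tumors, and that of Actb ran the other way, at 2.90 and 2.82 against 2.47 and 2.63. Their part in the values below was not tested. Of the 8 umbrella cell markers, which define the surface layer of the urothelium, all lay lower on both tumor arrays, with summed signals of 27423 and 48285 in normal ureter against 2432 and 951 in the tumors, and the brightest, Upk1b, fell by 5.66 on the log2 scale (limma adjusted p = 0.0428). Fat cell markers were summed to 333150 and 344900 in normal ureter and to 46762 and 16609 in the tumors, so fat cell transcripts were measured in samples that the protocol describes as isolated epithelium. Macrophage markers ran the other way, from 10296 and 8771 to 45403 and 37317, with 9 of 9 higher on both tumor arrays, and the brightest, Csf1r, rose by 1.96 (limma adjusted p = 0.0428). Markers of B and plasma cells ran from 1579 and 1326 to 61065 and 41826, with 6 of 6 tested higher on both tumor arrays. The brightest, Jchain, rose by 5.31 (limma adjusted p = 0.0304). Of these 6, 2 (Pou2af1 and Tnfrsf17) reached the mean signal of 60.8 required for testing only through their tumor arrays, so this count is a description. Smooth muscle markers ran from 57056 and 45871 to 17071 and 27101, with 6 of 7 lower on both tumor arrays, and the brightest, Acta2, had a difference of -1.21 (limma adjusted p = 0.19). In such bulk samples fewer cells of a type and less RNA per cell cannot be told apart. No label names the animal behind a sample, so p-values measure only the spread between these samples.

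No gene of the 10 passed the test between tumor and normal ureter, a two-sided limma test on log2(signal + 16) with Benjamini-Hochberg adjustment over 13115 genes and a threshold of 0.05. The 0 of 10 stands beside 1.45% of all genes tested that passed. The smallest adjusted p was 0.0894, for E2f1. At an unadjusted p under 0.05 there were 5 of 10 genes, Ccnd1, Cdk4, Cdk6, Cdkn2a and E2f1, all higher in the tumors, where 10.7% of all genes tested were higher and 10.8% lower at that level. In 7 of 10 genes each tumor value exceeded each normal value, in 1, Rb1, the reverse held, and in Ccnd2 and Ccne1 the groups overlapped. Over all genes tested these arrangements held for 29.7% (above) and 27.6% (below). All 10 genes passed the filter on dim genes, a mean signal over the 4 arrays of at least 60.8, but Cdkn2a and E2f1 passed only through their tumor arrays, so these counts are a description. The smallest p that an exact two-sided permutation test allows in this design is 0.333, so none was run. Without tumor replicate 1, 4 of 10 genes passed, beside 31.7% of all genes tested, and without tumor replicate 2, 5 of 10 passed, beside 41.6%. These fits take the spread from the normal arrays alone, and the counts are near the shares of all genes. Without normal replicate 1 or normal replicate 2 none of the 10 passed.

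**Figure D1:**
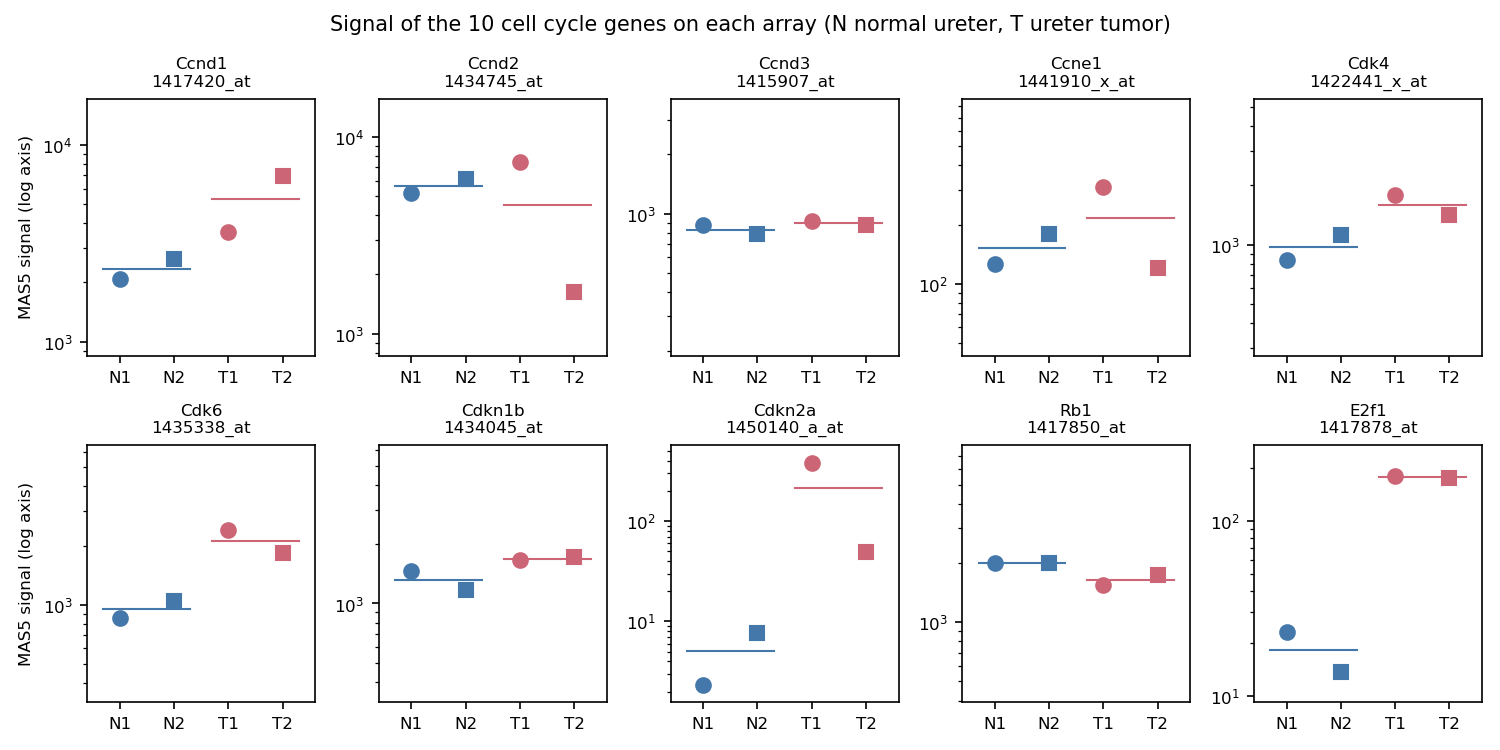
MAS5 signal (log axis, with its own range in each panel) of the 10 genes on the 2 normal ureter arrays (N1, N2, blue) and the 2 ureter tumor arrays (T1, T2, red), each gene read from its brightest probe set. Points are arrays and lines are group means; the groups do not overlap in 8 genes, and Ccnd2 has its highest and its lowest value on the tumor arrays.

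**Figure D2:**
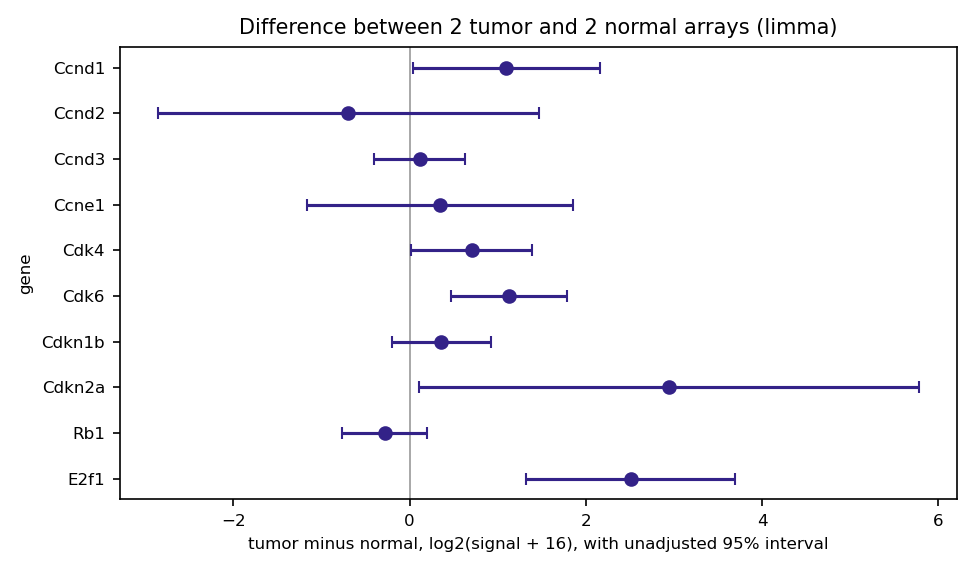
Difference between the tumor and normal arrays on the log2(signal + 16) scale, with the unadjusted 95% interval of the limma fit, n = 2 per group. The interval of Cdkn2a, 0.11 to 5.78, is the widest of the 10, and that of Ccnd3 runs from -0.41 to 0.63.

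Cyclin D1, the cyclin most closely tied to mitogen signals, was read by 3 probe sets, and on each of them the tumors lay above both normal arrays. The brightest, 1417420_at, gave a signal of 2078 and 2627 in normal ureter and 3615 and 6969 in the tumors. Tumor replicate 2 was the higher of the tumors on all 3. The difference was 1.10 on the log2 scale (SE 0.39, 95% interval 0.04 to 2.16, n = 2 per group, limma adjusted p = 0.22), and a 2.25-fold ratio of the group means. The dimmest probe set, 1417419_at, had the largest difference, 2.28, with signals of 429 and 614 in normal ureter against 2017 and 3246 in the tumors, while 1448698_at gave 1.35. In the fit over 27022 probe sets their adjusted p-values were 0.0663 and 0.205. The size of the Ccnd1 difference thus depended on the probe set by over 1.5 times. Without tumor replicate 1 the difference was 1.57 and without tumor replicate 2 it was 0.63.

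Cyclin D2, a second D-type cyclin that activates the same kinases, split the tumors. Its brightest probe set, 1434745_at, gave 5160 and 6138 in normal ureter, 7419 on tumor replicate 1 and 1619 on tumor replicate 2. Of its 7 probe sets 6 showed this order, with tumor replicate 1 above and tumor replicate 2 below both normal arrays. On the remaining one, 1416124_at, which was dim, tumor replicate 2 was also the lowest, at 61.2 against 75.1 to 124 on the other arrays. Tumor replicate 1 exceeded tumor replicate 2 by 4.58-fold on the brightest probe set. The group difference was -0.69 (SE 0.79, 95% interval -2.86 to 1.47, limma adjusted p = 0.65), so a change in either direction remains within the interval. Against the normal mean the difference was 0.40 for tumor replicate 1 and -1.79 for tumor replicate 2. The order of the tumors was thus opposite to that of Ccnd1, whose higher tumor was replicate 2. Marker lists also differed between the tumors. The 8 mast cell markers were summed to 794 and 674 in normal ureter, 108430 on tumor replicate 1 and 685 on tumor replicate 2; the brightest, Mcpt2, gave 52197 and 33.7 on the tumor arrays. The 7 markers of basal urothelium were summed to 9385 and 12933 in normal ureter and to 112150 and 8161 on tumor replicates 1 and 2; the brightest, Krt15, gave 50290 and 1523 there. Their part in the Ccnd2 values was not tested.

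Cyclin D3 differed least between the groups among the D-type cyclins. Its brightest probe set, 1415907_at, gave 871 and 786 in normal ureter and 920 and 875 in the tumors. The tumors lay above both normal arrays, but tumor replicate 2 exceeded normal replicate 1 by a small part of the gap between the normal arrays. The difference was 0.11 (SE 0.19, 95% interval -0.41 to 0.63, limma adjusted p = 0.765). A second probe set, 1438805_at, gave 0.40. The remaining one, 1444323_at, lay under the filter and ran the other way, from 48.0 and 37.0 to 7.22 and 10.7, and averaging the 3 turned the gene's difference to -0.24.

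Cyclin E1, which drives Cdk2 at the start of S phase, was dim and overlapped between the groups. The probe set 1441910_x_at gave 126 and 178 in normal ureter, 311 on tumor replicate 1 and 120 on tumor replicate 2. The other, 1416492_at, gave 126 and 91.7 in normal ureter, and 187 and 113 in the tumors. On both probe sets tumor replicate 1 was the highest of the 4 arrays and tumor replicate 2 lay at the level of normal ureter. The difference was 0.35 (SE 0.55, 95% interval -1.17 to 1.86, limma adjusted p = 0.754), and it became -0.29 without tumor replicate 1 and 0.98 without tumor replicate 2.

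**Figure D3:**
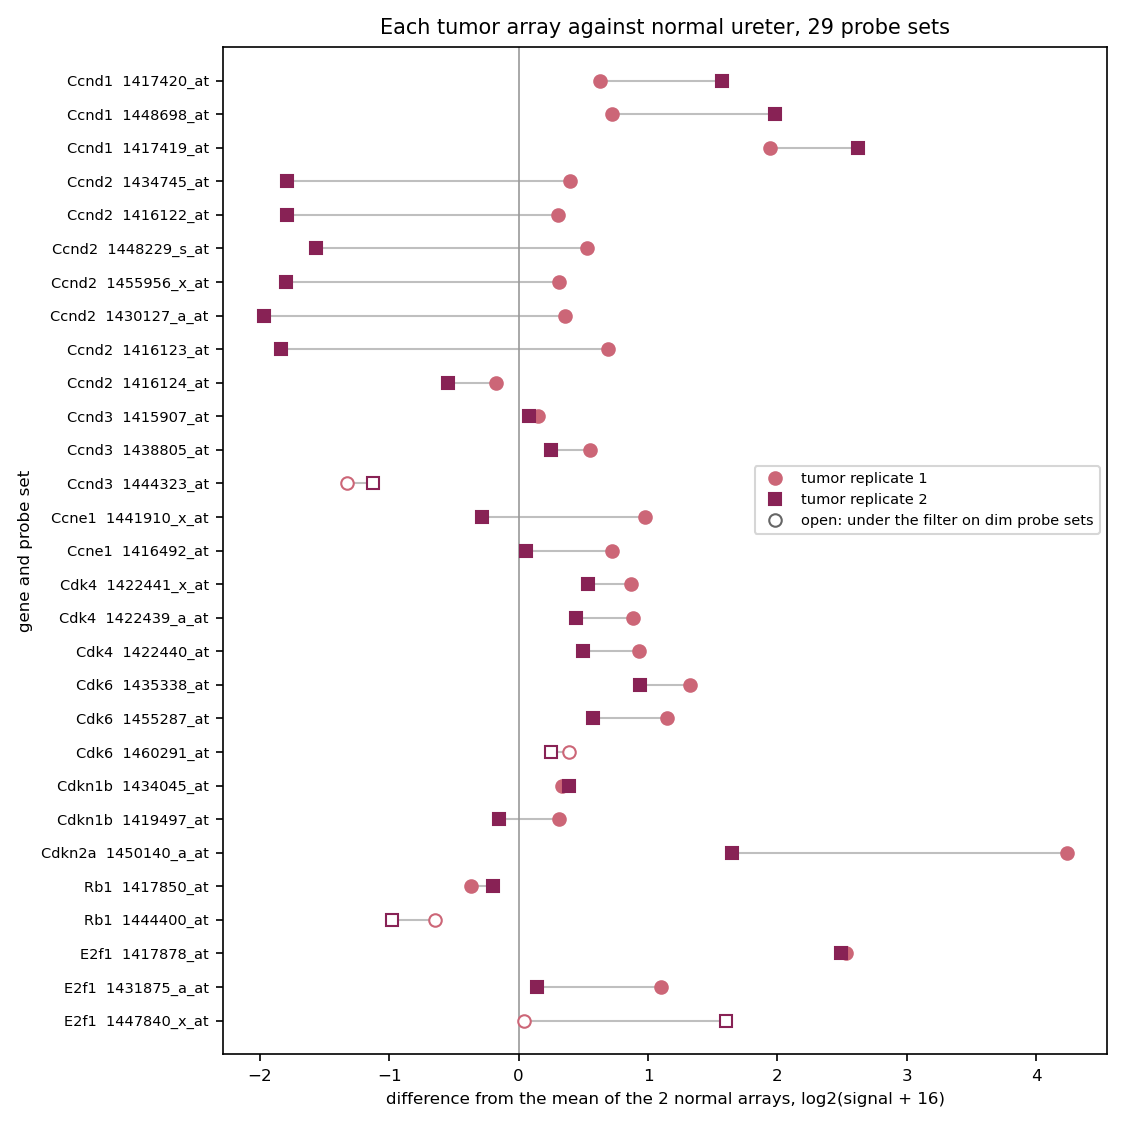
Difference of each tumor array from the mean of the 2 normal arrays, on the log2(signal + 16) scale, for all 29 probe sets of the 10 genes; open symbols mark the 4 probe sets under the filter. The pairs of Ccnd2 points straddle 0 on 6 of 7 probe sets, and those of Ccnd1, Cdk4 and Cdk6 lie right of 0 on all of theirs.

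Cdk4, a catalytic partner of the D-type cyclins, was higher on both tumor arrays on all 3 of its probe sets. The brightest, 1422441_x_at, gave 839 and 1116 in normal ureter and 1784 and 1410 in the tumors. The difference was 0.70 (SE 0.25, 95% interval 0.01 to 1.39, n = 2 per group, limma adjusted p = 0.226). The other probe sets gave 0.66 and 0.71, so the 3 were alike in size. Without tumor replicate 2 the difference was 0.87, and without tumor replicate 1 it was 0.54.

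Cdk6, the second kinase of the D-type cyclins, had the smallest unadjusted p of the 10 genes after E2f1. Its brightest probe set, 1435338_at, gave 857 and 1050 in normal ureter and 2404 and 1831 in the tumors, a 2.22-fold ratio of the group means. The difference was 1.13 (SE 0.24, 95% interval 0.47 to 1.79, limma adjusted p = 0.118). The probe set 1455287_at gave 0.86, with signals of 771 and 910 against 1879 and 1257. The remaining one, 1460291_at, lay under the filter at 47.2 to 71.1, with both tumor arrays above both normal ones. In both kinases tumor replicate 1 was above tumor replicate 2 on every probe set, the reverse of Ccnd1. Without tumor replicate 1 the Cdk6 difference was 0.94 and without tumor replicate 2 it was 1.33.

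The promoters of these kinases are shown because both kinases lay higher on both tumor arrays and Cdk4 is a known target of Myc, which binds the word CACGTG, the E-box. Each is the 250 bases before the RefSeq start (build GRCm38.p6), 5′ to 3′ on the gene's strand, with CACGTG in capitals.
Cdk4, chr10:127063285-127063534, plus strand: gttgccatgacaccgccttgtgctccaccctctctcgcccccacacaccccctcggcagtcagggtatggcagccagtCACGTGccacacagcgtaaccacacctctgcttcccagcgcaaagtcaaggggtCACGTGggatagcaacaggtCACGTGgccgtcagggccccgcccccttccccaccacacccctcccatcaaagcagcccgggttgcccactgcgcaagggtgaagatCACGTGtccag
Cdk6, chr5:3343643-3343892, plus strand: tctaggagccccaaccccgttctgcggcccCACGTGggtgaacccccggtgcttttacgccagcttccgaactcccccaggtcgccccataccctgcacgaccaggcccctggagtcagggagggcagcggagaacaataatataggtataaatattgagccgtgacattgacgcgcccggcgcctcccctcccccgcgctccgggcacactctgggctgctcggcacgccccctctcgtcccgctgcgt
The word reads the same on both strands. It occurred 4 times before the Cdk4 start, beginning 172, 118, 98 and 11 bases upstream, and 1 time before the Cdk6 start, 220 bases upstream. Of 32851 promoter windows of this length 6.02% held it at least 1 time and 7 windows, or 0.0213%, held it at least 4 times. Of the 10 genes 7 had such a window, with 9 windows in all, and no other of these windows held the word. Myc (1424942_a_at) gave 324 and 268 in normal ureter and 827 and 781 in the tumors, a difference of 1.40 (SE 0.23, limma adjusted p = 0.0825). A match is a description of the sequence, and binding was not measured.

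Cdkn1b encodes p27, which binds and holds cyclin E with Cdk2. Its brightest probe set, 1434045_at, gave 1466 and 1167 in normal ureter and 1657 and 1713 in the tumors. The tumors were close to each other and lay above both normal arrays. The difference was 0.36 (SE 0.20, 95% interval -0.20 to 0.92, limma adjusted p = 0.378). It was 0.59 with arrays centred on their medians, 0.22 with averaged probe sets and 0.20 without normal replicate 2. On the dim probe set 1419497_at the groups overlapped, at 85.8 and 42.4 against 79.8 and 53.2.

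Cdkn2a encodes unrelated proteins from alternative starting exons: p16, which inhibits Cdk4 and Cdk6, and p19Arf, which stabilizes p53. Its single probe set, 1450140_a_at, gave 2.34 and 7.71 in normal ureter, 377 on tumor replicate 1 and 49.5 on tumor replicate 2. Only tumor replicate 1 was above the filter limit of 60.8, and both tumors lay above both normal arrays. The difference was 2.94 (SE 1.03, 95% interval 0.11 to 5.78, n = 2 per group, limma adjusted p = 0.219). Values of 4.24 for tumor replicate 1 and 1.65 for tumor replicate 2 against the normal mean show the spread between the tumors. The size depended on the pseudocount, with 4.68 at a pseudocount of 1 and 1.70 at 64, with the normal signals near 0. With the filter applied to the mean log2 value, a choice made after seeing the data, the gene was not tested. The suffix of the probe set marks probes shared by several transcripts of the gene, so the p16 and p19Arf transcripts cannot be told apart here. The mast cell and basal markers given above were also higher on tumor replicate 1 than on tumor replicate 2, and their part in the Cdkn2a values was not tested.

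The start regions of both transcripts are shown because the E2F word searched for stands in only one of them. The words were TTTCGCGC, TTTGGCGC, TTTCCCGC and TTTGCCGC, on both strands, and a match is in capitals.
Cdkn2a, upstream start, chr4:89294620-89294869, minus strand: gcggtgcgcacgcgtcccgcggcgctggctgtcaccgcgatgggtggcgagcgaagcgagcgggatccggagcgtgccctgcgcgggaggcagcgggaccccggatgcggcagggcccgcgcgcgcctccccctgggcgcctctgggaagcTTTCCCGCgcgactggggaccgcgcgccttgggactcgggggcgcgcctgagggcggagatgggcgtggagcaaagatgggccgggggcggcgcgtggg
Cdkn2a, downstream start, chr4:89282193-89282442, minus strand: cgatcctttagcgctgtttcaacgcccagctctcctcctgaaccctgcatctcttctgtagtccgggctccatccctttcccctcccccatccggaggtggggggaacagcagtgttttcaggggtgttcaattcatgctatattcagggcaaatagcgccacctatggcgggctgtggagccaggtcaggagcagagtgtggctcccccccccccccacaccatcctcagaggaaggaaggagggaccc
The match began 99 bases before the upstream start, which is that of the p19Arf transcript, and no match was found before the downstream start, that of p16. Of 32851 windows 1.86% held any of the 4 words, and of the 9 windows of the genes examined 1 did. The window before the RefSeq start used for E2f1 held none, which says only that these letters are not in that window. That window may lie inside the gene rather than before its main start, which was not tested. It is counted among the 9 windows, and nothing is concluded about the E2f1 promoter.

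Rb1, whose protein restrains E2F factors, was the only gene of the 10 with both tumors below normal ureter. Its brightest probe set, 1417850_at, gave 1996 and 2009 in normal ureter and 1544 and 1745 in the tumors. The gap between the groups exceeded the gap within the normal arrays but was of the size of the gap within the tumors. The difference was -0.28 (SE 0.18, 95% interval -0.77 to 0.20, limma adjusted p = 0.415). The probe set 1444400_at, under the filter, was also lower, at 22.9 and 14.8 against 48.4 and 41.3, and averaging both gave -0.55. When each array was centred on its median, which moved the median difference of all genes tested from 0.03 to 0.26, the Rb1 difference shrank to -0.06 and those of Ccnd1, Cdk4, Cdk6 and E2f1 grew to 1.33, 0.93, 1.36 and 2.68.

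E2f1, which activates genes of DNA synthesis, had the smallest p of the 10 genes. Its probe set 1417878_at gave 23.0 and 13.7 in normal ureter and 181 and 176 in the tumors. The tumors were nearly equal, and both lay above normal ureter by about the same amount, 2.53 and 2.49 on the log2 scale. The difference was 2.51 (SE 0.43, 95% interval 1.32 to 3.70, n = 2 per group, limma adjusted p = 0.0894). It was 3.25 at a pseudocount of 1 and 1.56 at 64. Without tumor replicate 1 the difference was 2.49 and without tumor replicate 2 it was 2.53. Those fits take the spread from the 2 dim normal values, so no call is read from them. Only the tumor arrays carried E2f1 past the filter, so its p-values are a description. A second probe set, 1431875_a_at, was brighter in normal ureter and differed less, with 59.3 and 67.4 against 154 and 71.5. On it tumor replicate 2 stood close to the normal arrays, and the difference was 0.62. When probe sets were ranked by mean log2 value, E2f1 was read from this second probe set (adjusted p = 0.506), and averaging all 3 gave 1.32. The third, 1447840_x_at, was dim on all arrays, with 8.71 and 3.01 in normal ureter, 6.35 on tumor replicate 1 and its highest value on tumor replicate 2. The size of the E2f1 difference therefore rests on 1 probe set.

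Over the 25 probe sets of the 10 genes that passed the filter, 0 passed the limma test (adjusted p from 0.0663), beside 1.81% of the 27022 probe sets tested. Of these 25, 10 had an unadjusted p under 0.05, all higher in the tumors, beside 9.54% of all probe sets higher and 12.7% lower at that level. In 14 the tumors lay above both normal arrays, in 1 they lay below and in 10 the groups overlapped, beside 25.6% and 31.8% for above and below over all probe sets. The 10 and the 14 both include 1417878_at of E2f1 and 1450140_a_at of Cdkn2a. These passed the filter only through their tumor arrays, so the counts are a description. Probe sets of 1 gene read the same RNA and are not independent. In 0 of the 10 genes did probe sets past the filter point in opposite directions.

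Among partners of these genes, 1 of 70 tested genes in 6 lists passed, the inhibitor Cdkn2c, which fell. This is 1.43%, beside 1.45% of all genes tested, so by this count the partners did not stand out. Cdkn2c encodes p18, an Ink4 inhibitor of Cdk4 and Cdk6. It gave 5202 and 4712 in normal ureter and 1330 and 1142 in the tumors (1416868_at). The groups were far apart, and the arrays of each group lay close together. It fell by 1.99 on the log2 scale (SE 0.19, n = 2 in each group, limma adjusted p = 0.0428). The call ended without normal replicate 1 or normal replicate 2 (limma adjusted p = 0.678 and 0.662) and in 5 other alternatives, with the same direction throughout. Fat cell markers were lower too, with 6 of 6 tested below on both tumor arrays and 2 past the test (the brightest, Fabp4, had a difference of -3.20, limma adjusted p = 0.136), and their part in the Cdkn2c value was not tested.

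The other inhibitors did not share a direction. Of the 5 inhibitors outside the 10 genes, 1 fell, 0 rose and 4 did not pass, beside 1.45% of all genes tested that passed. The median difference of the 5 was -0.35, beside 0.03 over all genes tested. The median was 0.12 on tumor replicate 1 and -0.81 on tumor replicate 2. Cdkn1a (p21), a p53 target, had a difference of 0.68 (limma adjusted p = 0.181), with 841 and 795 in normal ureter and 1462 and 1193 in the tumors on 1424638_at. Its other probe set, 1421679_a_at, gave 702 and 596 against 696 and 599. Cdkn2b, which neighbours Cdkn2a and encodes p15, gave 675 and 686 in normal ureter and 743 and 380 in the tumors, an overlap. Cdkn1c (p57) and Cdkn2d (p19Ink4d), named after their values were seen, had differences of -0.69 and 0.54, with adjusted p-values of 0.199 and 0.494.

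Of 8 further cyclins and kinases of the G1 to S step 7 were tested, and 0 passed. Of these 7, 1 was higher and 1 lower at an unadjusted p under 0.05, beside 10.7% and 10.8% of all genes tested. The median difference of the 7 was 0.17, or 0.39 with arrays centred on their medians, 0.39 without tumor replicate 2 and 0.10 with averaged probe sets. Ccna2, the cyclin of S and G2 phase, gave 157 and 167 in normal ureter and 627 and 382 in the tumors, a difference of 1.51 (SE 0.34, limma adjusted p = 0.128). Cdk2, the partner of cyclins E and A, gave 435 and 406 against 1241 and 561, a difference of 0.97 (adjusted p = 0.3). Ccne2, which acts like cyclin E1, overlapped between the groups, with 159 and 162 against 230 and 129. As with Ccne1, tumor replicate 1 was the highest array and tumor replicate 2 was not. Cdc25a, a phosphatase that activates Cdk2, had a difference of -0.83 (adjusted p = 0.165) on 1417131_at while 1417132_at overlapped between the groups, and Ccnh, a subunit of the CDK-activating kinase, one of -0.30 (adjusted p = 0.407), although its probe set 1418585_at gave 0.27.

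Among 11 pocket proteins, other E2F factors and their DP partners, 0 passed the limma test and the median was 0.06. The median was 0.39 without tumor replicate 2, 0.29 with arrays centred on their medians and -0.04 with averaged probe sets. The tumors lay above both normal arrays in 3 genes and below in 2, beside 29.7% and 27.6% of all genes. At an unadjusted p under 0.05 there were 1 higher and 1 lower, beside 10.7% and 10.8%. The 3 include E2f8, which passed the filter only through its tumor arrays. Rbl2 (p130), a relative of Rb1 that acts in resting cells, had a difference of 0.79 (SE 0.26, limma adjusted p = 0.197), opposite in sign to Rb1. E2f8, a repressor of late S phase, had one of 1.61 (SE 0.61, adjusted p = 0.244), with 29.7 and 58.9 against 254 and 102. E2f4, the main repressor E2F of resting cells, had one of -1.13 (adjusted p = 0.237), with 107 and 115 against 35.8 and 49.2. It is 1 of the 2 genes lying below and passed the filter limit of 60.8 only through its normal arrays. Tfdp2, a DP partner, had a difference of -0.74 (adjusted p = 0.21). Genes of the ubiquitin ligases that degrade cyclins and p27 gave 0 of 8 past the test. Their median was -0.05, or 0.17 with arrays centred on their medians. Of these 8, 1 was higher and 1 lower at an unadjusted p under 0.05, beside 10.7% and 10.8% of all genes tested. Skp2, which marks p27 for degradation, had a difference of 0.74 (adjusted p = 0.296), with 121 and 168 in normal ureter and 279 and 222 in the tumors. Fbxo31 and Ambra1, which target cyclin D1, had differences of -0.90 and 0.71 (adjusted p = 0.154 and 0.195), and a second Ambra1 probe set gave -0.66. Cul1, the scaffold of the ligase, had one of -0.44 (adjusted p = 0.299).

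Of the genes that E2F factors are known to activate in S phase none passed, although most lay higher in both tumors. Of 32 listed genes 28 had a single-gene probe set and 26 were tested, and 0 passed the limma test. At an unadjusted p under 0.05 there were 10 higher and 0 lower, beside 10.7% and 10.8% of all genes tested. The tumors lay above both normal arrays in 17 of 26 and below in 0, beside 29.7% and 27.6% of all genes, and the groups overlapped in 9. The filter left out 2 listed genes. Of these, Orc1 lay lower in both tumors, with 98.5 and 81.8 in normal ureter against 5.71 and 31.2. Tyms lay higher, with 44.8 and 27.8 against 45.6 and 48.3. The median difference of the 26 was 0.86, beside 0.03 over all genes tested. It was 1.40 on tumor replicate 1 and 0.37 on tumor replicate 2, which are also the medians without the other tumor. Rrm2, which makes deoxynucleotides, gave 233 and 267 in normal ureter and 2569 and 1203 in the tumors on 1434437_x_at (limma adjusted p = 0.0794), and its difference was 2.74 there and 1.00 on 1416120_at. Top2a, which untangles DNA, gave 105 and 157 against 1973 and 600, a difference of 2.94 (SE 0.66, limma adjusted p = 0.126), while a dim second probe set gave -0.19. Uhrf1, which maintains DNA methylation, and Mcm5, which helps unwind DNA at the fork, had differences of 1.88 and 1.90 (adjusted p = 0.122 and 0.126). In each of these 4 genes tumor replicate 1 was higher than tumor replicate 2, whereas the tumors were nearly equal in E2f1 on 1417878_at. The Gapdh ratio and the macrophage, plasma cell and smooth muscle markers given above differed between the groups as well, and their part in these values was not tested.

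**Figure D4:**
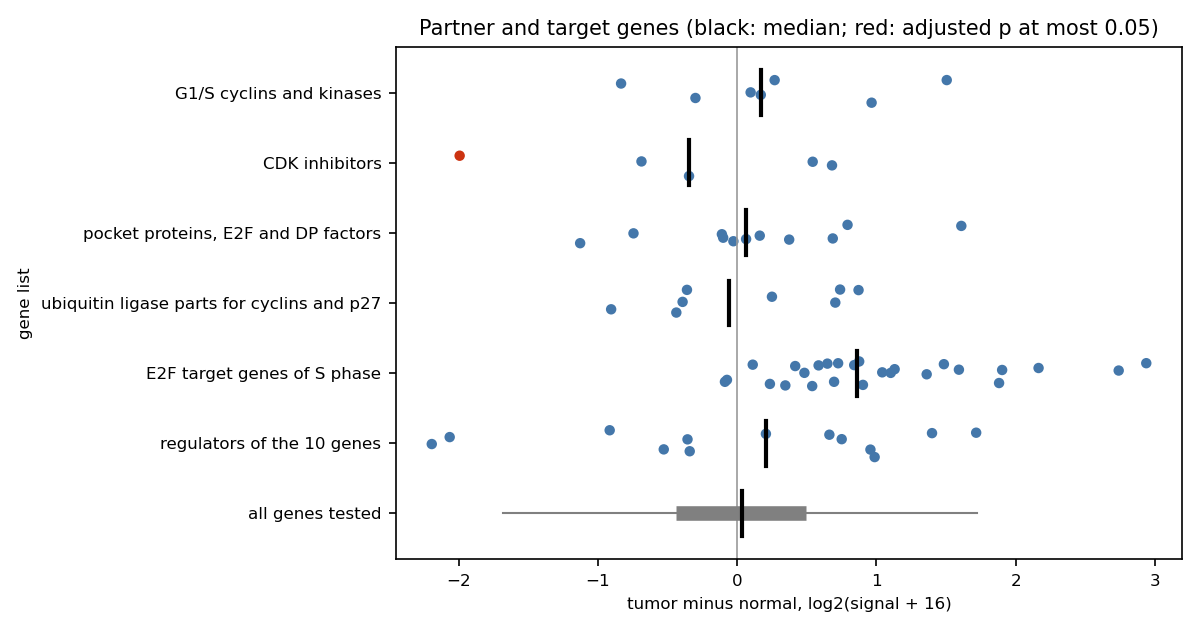
Tumor minus normal difference, log2(signal + 16), of the 70 tested partner, target and regulator genes (points, spread vertically only for legibility), with list medians in black and genes past the limma test in red. The grey bar spans the quartiles of all 13115 genes tested, -0.44 to 0.49, and its line the 5th to 95th percentile; the E2F target list has the highest median, 0.86, and Cdkn2c is the only red point.

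Of 14 regulators known to act on the 10 genes, 13 were tested and 0 passed. Of these 13, 2 were higher and 2 lower at an unadjusted p under 0.05, beside 10.7% and 10.8% of all genes tested. The tumors lay above both normal arrays in 7 and below in 6, beside 29.7% and 27.6% of all genes, and the 7 include Mycn, which passed the filter only through its tumor arrays. The median was 0.21, or 0.43 with arrays centred on their medians and 0.01 with averaged probe sets. With genes filtered by mean log2 value the median was -0.34, and with a filter at the 60th percentile it was -0.07. Jun, an AP-1 factor that induces Ccnd1, gave 1282 and 1561 in normal ureter and 3127 and 2441 in the tumors, a difference of 0.96 (SE 0.23, limma adjusted p = 0.136). Id1, a repressor of Cdkn2a transcription, gave 6939 and 10166 against 3573 and 1113, a difference of -2.06 (SE 0.64, adjusted p = 0.185). Mycl, a relative of Myc, ran opposite to Myc, with 967 and 1312 against 502 and 105 and a difference of -2.19 (adjusted p = 0.224).

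The genes most like E2f1, Ccnd1 and Cdkn2a were taken as those with the smallest Euclidean distance between profiles over the 4 arrays, among 13115 genes, on the log2 scale and set to the normal mean. The size, spread and tumor order of the genes found follow from that choice and are not separate evidence. For E2f1 these were Cap1, an actin regulator, Ms4a7, a macrophage gene, and Cxcl1, a chemokine, at distances of 0.18, 0.18 and 0.23. All 3 passed the limma test with differences of 2.52, 2.63 and 2.57 (adjusted p = 0.0414, 0.0428 and 0.0487), with smaller standard errors than E2f1. For Ccnd1 they were Mfsd9, a putative transporter, Tcea3, an elongation factor, and Thbs2, a matrix protein, at 0.05, 0.09 and 0.12, each with the higher tumor value on replicate 2. For Cdkn2a they were the chemokine Ccl3, the cytokine Tnfsf13b and the light chain gene Igkv6-20, at 0.40, 0.42 and 0.42. Each of these 3 had the higher tumor value on replicate 1, such as 2603 against 413 for Tnfsf13b, and the normal means of Ccl3 and Igkv6-20 lay under the filter limit.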

How the data were processed

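The authors deposited MAS5 signal intensity per probe set, per the submitters' processing notes, and the trimmed mean (2% of probe sets at each end) was 500 on every array. The sources used here give no MAS5 version, detection calls or filters, and such scaling makes each intensity relative to its array. RNA was labelled from 6 ug of total RNA, per the labels' protocols. Of 45101 probe sets 64 were controls and left out, 932 had several gene symbols, 9211 had none here, and none of these named a gene. Of 34958 probe sets with 1 symbol, 34754 were found by gene identifier in a newer gene table and took its symbol, changed or not. Of the single-gene probe sets of a gene the one with the highest mean signal was used, and genes with a mean under the 40th percentile of probe sets, 60.8, were left out. Differences are on the log2(signal + 16) scale, which understates dim genes. The fold ratios given for Ccnd1, Ccnd2 and Cdk6 are of the signals themselves, without the 16. limma 3.58.1 in R 4.3.3 was fitted with an intensity trend (2 residual and 2.09 prior degrees of freedom). Members, lists and tests were chosen with earlier results of these data known. Partner genes named are those past the threshold or the 4 with the smallest p per list, plus Cdkn1a, Cdkn2b, Ccne2, Cdk2 and Myc, the brightest marker of a cell type and the 3 nearest profiles. On simulated data over 13115 genes with 200 changed, genes changed by 1, 2 and 4 log2 units were called at 0%, 0.149% and 19.7%. In the main fit 2824 genes had an unadjusted limma p under 0.05, far more than 200, so these rates need not hold there. Promoters came from RefSeq (GRCm38.p6). Alternatives were other pseudocounts, scalings, filters, probe set rules, priors, a replicate block and leaving out each array. Figures used matplotlib 3.10.9.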

Additional observations from a re-analysis of the deposited data

How the results depend on the processing

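Fits that leave out an array aside, all of the 10 genes but Ccnd3 kept their direction in every alternative fit that tested them. None of the 10 passed the threshold in those fits. With the filter at the 60th percentile 7 of the 10 were tested, and Ccne1, Cdkn2a and E2f1 were not. Ccnd3 turned to -0.24 when probe sets were averaged. Leaving out 1 array, where a group's lone array is assumed to vary like the other group's, gave 0.63 to 1.57 for Ccnd1, -1.79 to 0.40 for Ccnd2, 0.04 to 0.19 for Ccnd3, -0.29 to 0.98 for Ccne1, 0.50 to 0.91 for Cdk4, 0.94 to 1.33 for Cdk6, 0.20 to 0.52 for Cdkn1b, 1.65 to 4.24 for Cdkn2a, -0.37 to -0.20 for Rb1 and 2.31 to 2.71 for E2f1. The reversals were those of Ccnd2 without tumor replicate 2 and of Ccne1 without tumor replicate 1. The 190 genes called over the table became 1903 when 2-fold with an unadjusted p under 0.05 was the rule, 3 with arrays centred on their medians, 488 of the probe sets with every probe set in the fit, 102 with averaged probe sets, 69 without the filter, 2 without the intensity trend and 0 to 5452 when an array was left out. The 1 call among partner genes, Cdkn2c, was lost, leaving 0, with centring (adjusted p = 0.0683), averaged probe sets (0.0514), no filter (0.0509), no trend (0.068) and the replicate block (0.116), and leaving out an array gave 0 to 42 calls. With the replicate number as a block 0 genes over the table passed and 2287 had an unadjusted p under 0.05. The deviations of same-numbered arrays from their group means had r = 0.0434 over genes. With 2 arrays per group this r cannot decide whether same-numbered samples shared more than a number. The filter by mean log2 value, added after seeing the data, gave 187 calls, left Cdkn2a untested and moved the median of the regulator list from 0.21 to -0.34. The causes of these shifts were not tested. The 2 arrays per group limit every interval given.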
